A study of Mus musculus with 3 samples.

Results

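The genes described here encode the proteins of the mitochondrial ribosome, and were chosen by symbol. Of 21887 protein-coding genes on the assembled nuclear chromosomes of RefSeq GRCm38.p6, 78 carry the symbol Mrpl or Mrps followed by a number, with or without a letter. Mrpl symbols number 49 and Mrps symbols 29. The members lie on many chromosomes, most often on chromosome 11, with 11 of them. No measured value entered the rule of choice, but earlier results of these data were known when the genes were chosen. The data come from ATAC-seq, in which a transposase cuts accessible DNA, on cells from the root end (the apical part) of mouse first molars at postnatal day 7.5. All 3 libraries came from C57BL/6 mice that carry the floxed Arid1a allele on both chromosomes. For the 2 libraries of the control group the labels give the genotype Arid1a fl/fl, and for the 1 mutant library Gli1-CreER;Arid1a fl/fl. The Gli1-CreER driver is a tamoxifen-dependent recombinase made in cells that express Gli1, so that other cells of the same molar keep Arid1a. The labelled protocol gives tamoxifen at postnatal day 3.5, at 1.5 mg per 10 g of body weight, and 5000 cells from each group. No expression was measured, so the labelled tissue could not be checked against marker genes.

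The deposited values are 13500 open chromatin windows of 201 bp and 5753 matches to the binding motif of the zinc finger transcription factor Plagl1 within them, all pooled over the libraries. A window has no height and no value per library. Control and mutant could therefore not be compared for any gene. Read depth at a window is not known, and the values carry no error between replicates. Intervals are exact Clopper-Pearson 95% intervals and cover counting error only. A gene without a window in this list may still have open chromatin in these cells. A motif match is a stretch of letters and not a measurement of Plagl1 binding. Tests of the gene list against other genes were not made, so shares are given beside the same share over all genes.

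The mitochondrial ribosome makes the few proteins encoded by mitochondrial DNA, all of them core subunits of the respiratory chain and of the ATP synthase. Its RNAs come from the mitochondrial genome, while all of its proteins are encoded in the nucleus, made in the cytosol and imported. A large subunit, which joins amino acids, and a small subunit, which reads the messenger RNA, assemble inside the organelle with the help of GTPases, helicases and RNA-modifying enzymes. The promoters of such genes in mammals are commonly described as free of a TATA box and rich in CpG, with binding sites for the nuclear respiratory factors NRF1 and GABP (an ETS family factor) and for YY1. The symbols follow early protein naming and not always the place in the ribosome. Mrps18a and Mrps30 are proteins of the large subunit, and Mrps36 is now known as a component of the 2-oxoglutarate dehydrogenase complex.

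Nearly all of these genes had an open chromatin window at one of their ends. A window with its midpoint within 1 kb of either end was found at 69 of 78 members (88.5%, interval 79.2 to 94.6). Over all protein-coding genes it was 46.6%. The share was 43 of 49 for Mrpl genes (87.8%) and 26 of 29 for Mrps genes (89.7%), so the 2 kinds of symbol did not stand apart. With Mrps18a and Mrps30 moved to the large subunit and Mrps36 left out, the shares were 88.2% and 88.5%. Of the members, 65 had 1 window and 4 had 2. Those 4 were Mrpl2, a core protein at the peptidyl transferase centre, Mrpl38, Mrpl58, a peptidyl-tRNA hydrolase that became part of the ribosome, and Mrps18b. In all, 72 windows were at ends of members.

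Most of these windows sat at the start of the gene and not at its finish: of 65 pairs of a member and a window with a known start, the midpoint was within 1 kb of it in 61. RefSeq starts were available for 69 members, and 66 of those (95.7%) had a window with its midpoint within 1 kb of a start, where 50.7% of the 17492 protein-coding genes with a start had one. All 26 Mrps genes with a start had such a window, and 40 of 43 Mrpl genes did. The windows were close: the median distance to the start, in either direction, was 104 bp for members and also 104 bp for all genes with such a window. In 32 of the 66 (48.5%) the window covered the start itself, as it did in 48.7% of all such genes. Midpoints lay upstream of the start in 35 members (53.0%) and downstream in 31. Over all genes they lay upstream in 39.3%, and the signed median was -9 bp for members and 42 bp for all genes.

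**Figure D1:**
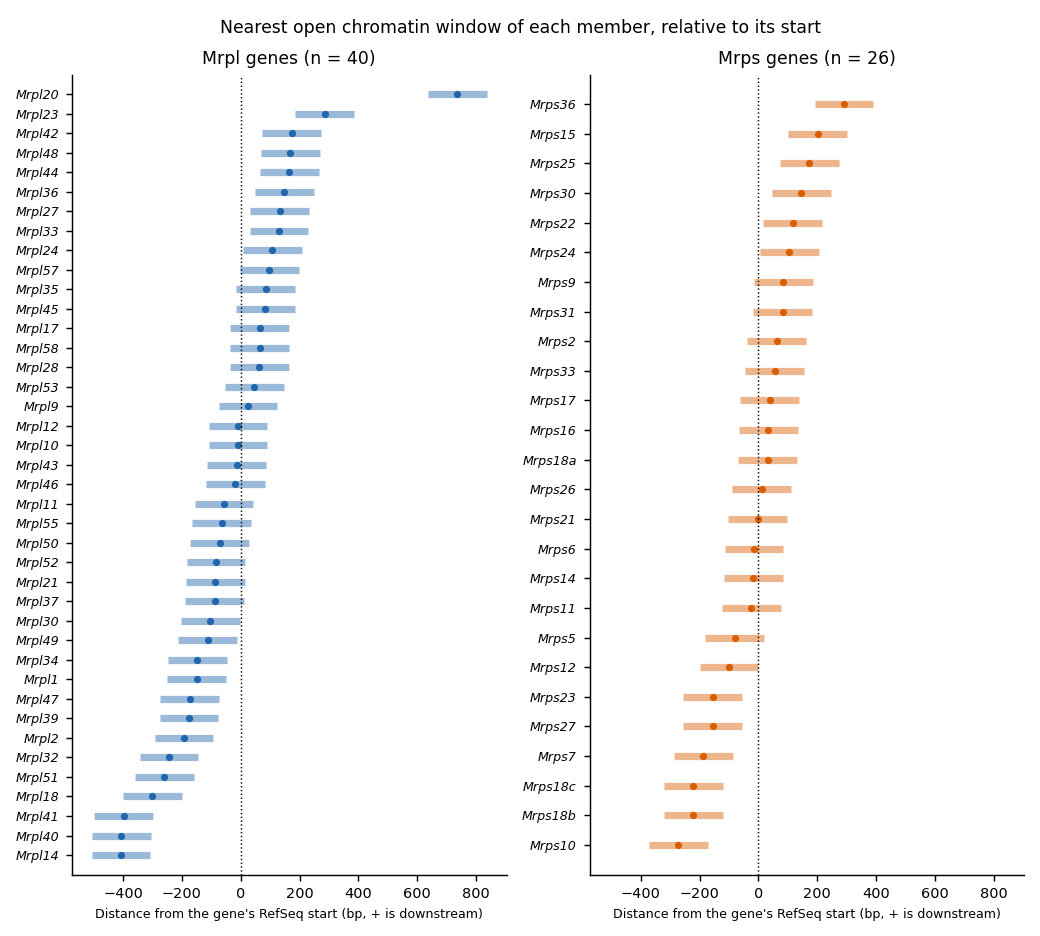
Position of the nearest open chromatin window of each member relative to its RefSeq start, in bp, with positive values downstream. Points are window midpoints and bars the 201 bp windows, for 40 Mrpl genes (left) and 26 Mrps genes (right); most bars lie within 300 bp of the dotted line at the start, and Mrpl20 is the farthest at 737 bp.

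The nearest midpoints to a start were those of Mrps21 at -2 bp, Mrpl10 and Mrpl12 at -9 bp each, and Mrps26 at 11 bp. Mrpl10 and Mrpl12 belong together in the ribosome: they form the flexible stalk of the large subunit that recruits translation factors. At the far side were Mrpl20 at 737 bp, and Mrpl14, Mrpl40 and Mrpl41 at -407, -406 and -398 bp. The last 3 are windows on the upstream side that a neighbouring gene shared.

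The 9 members without a window at an end fell into different cases once their starts were taken into account. Mrpl18, Mrpl24, Mrps2 and Mrps23 had no window within 1 kb of the outermost ends of the gene, but each had one near its RefSeq start, at -300, 107, 62 and -155 bp. Mrps2 is a conserved protein of the small subunit with a bacterial counterpart, and its outer annotated end lies 2177 bp from that window. These windows near the starts of Mrpl18, Mrpl24, Mrps2 and Mrps23 all lie inside the annotated span of the gene. Mrpl4 and Mrps34 had no start in the table. The nearest window to an end lay at 1713 bp for Mrpl4 and at 8481 bp for Mrps34. The nearest window of Mrpl22 was at -3213 bp, upstream of its start. Only Mrpl3 and Mrpl16 were far from any window of the list by this measure, with the nearest at 78402 and 48218 bp from the start. Mrpl3 and Mrpl16 are both conserved proteins of the large subunit. Around the limit of 1 kb, the values just inside were 850 bp for Mrpl23, 876 bp for Mrpl45, 952 bp for the second window of Mrpl38 and 973 bp for Mrps31. Just outside were 1021 bp for a further window of Mrpl36, 1274 bp for one of Mrpl34 and 1396 bp for that of Mrpl18. The windows of Mrpl23, Mrpl45 and Mrps31 lie 285, 83 and 82 bp downstream of the RefSeq start, so for these genes the distance comes from an outer end of the annotation.

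Many of these windows belonged to a pair of genes. A window was counted as shared when its midpoint was also within 1 kb of an end of another annotated gene. Of the 72 member windows, 42 (58.3%) were shared, against 29.2% of the 9078 windows at ends of protein-coding genes. A protein-coding neighbour was involved in 37 (51.4%, interval 39.3 to 63.3), against 16.0% of all. Mrpl windows were shared with a protein-coding gene in 28 of 46 cases (60.9%) and Mrps windows in 10 of 27 (37.0%, interval 19.4 to 57.6), and the intervals of the 2 shares overlap. Gene ends lie closer together in dense parts of the genome, and gene density was not measured here.

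Many of these pairs start back to back, taking for each gene the RefSeq start nearest the window. Such divergent starts of a member and a protein-coding neighbour both lay within 1 kb of the window's midpoint. They were found at 22 of 72 member windows (30.6%), against 6.98% of all windows at ends of protein-coding genes. Outer annotated ends were not used and can reach past these starts, so that some pairs overlap. At Mrpl14, which overlaps Tmem63b in this way, the outer end lay 220 bp from the midpoint and the start was at -407 bp. Strands were known for a protein-coding pair at 31 of the member windows, and 22 of these 31 (71.0%) were divergent. Over all windows with such a pair it was 634 of 1111 (57.1%), so the arrangement was also the commonest elsewhere. The starts of the 22 pairs were 32 to 935 bp apart, with a median of 136 bp, and 19 pairs lay within 350 bp. The window's midpoint fell between the starts in 12 pairs, and the window covered both starts in 5, namely those of Mrpl21, Mrpl37, Mrpl46, Mrpl50 and Mrps12. Spacing and position were not measured over the 634 divergent windows of all genes, so neither can be read as a trait of members.

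**Figure D2:**
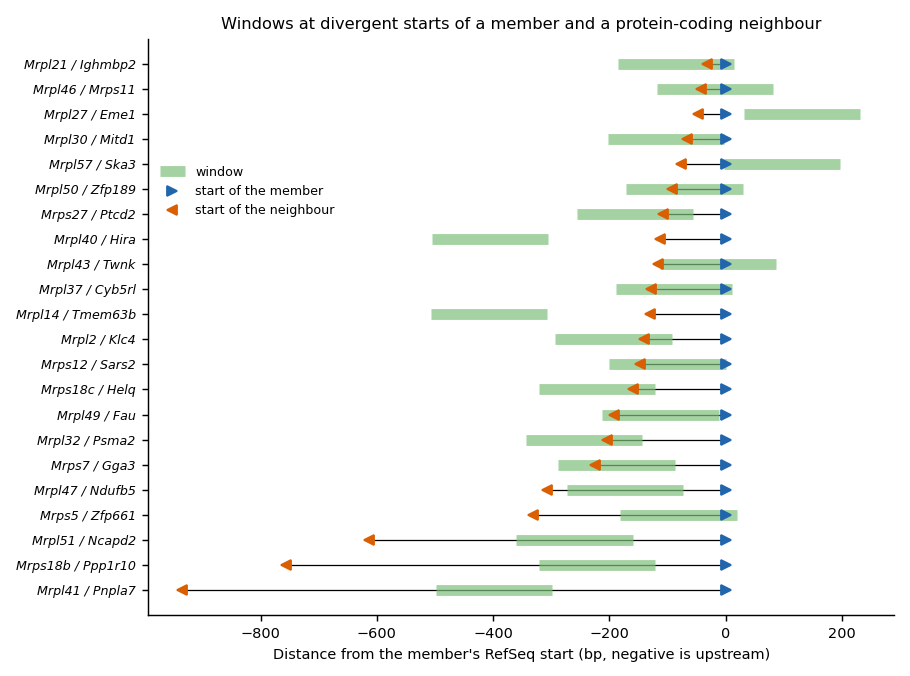
The 22 windows at divergent starts of a member and a protein-coding neighbour, drawn to scale from the member's RefSeq start at 0, in bp, with negative values upstream. Blue and orange triangles are the starts of the member and of the neighbour and green bars the windows; the starts are 32 bp apart for Mrpl21 and Ighmbp2 and 935 bp apart for Mrpl41 and Pnpla7.

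One window served a pair of members. Mrpl46 and Mrps11, a protein of each subunit, start 42 bp apart on chromosome 7, and their common window had its midpoint 18 bp upstream of the start of Mrpl46 and 24 bp upstream of that of Mrps11. The window had a GC content of 59.7% and 7 CpG per 100 steps between neighbouring bases, and held 1 Plagl1 motif site. Its bases are shown because it was the only window shared by a gene of each subunit. The window covers both starts, so only part of it lies ahead of both genes. The plus strand of GRCm38 is printed, and capitals mark the Plagl1 match.

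Mrpl46 and Mrps11, chr7:78783007-78783207: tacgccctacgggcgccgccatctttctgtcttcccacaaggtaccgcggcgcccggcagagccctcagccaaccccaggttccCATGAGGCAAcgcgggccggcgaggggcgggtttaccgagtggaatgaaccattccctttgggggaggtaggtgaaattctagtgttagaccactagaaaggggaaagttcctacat

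Other partners also make mitochondrial proteins, and these were picked out after the neighbours had been seen. Mrps12, the protein of the decoding centre in the small subunit, starts 147 bp from Sars2, the mitochondrial seryl-tRNA synthetase. Mrpl43 starts 116 bp from Twnk, the helicase that unwinds mitochondrial DNA for replication. Mrpl47 starts 308 bp from Ndufb5, a subunit of respiratory complex I. Mrps27 starts 108 bp from Ptcd2, a pentatricopeptide repeat protein of mitochondrial RNA processing. Mrpl36 shared its window with Ndufs6, another subunit of complex I, whose start lay 27 bp from the midpoint. For Mrpl36 itself that window is at the outer end of the gene, 2554 bp upstream of the start in the table, and the further window at 1021 bp from the gene end lies 148 bp downstream of that start.

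The remaining divergent partners have varied roles. Of genes for the handling of DNA and chromosomes, Mrpl27 was paired with Eme1, a subunit of a structure-specific endonuclease, with starts 48 bp apart. Mrpl57 was paired with Ska3, a kinetochore protein (76 bp), Mrpl51 with Ncapd2, a condensin subunit (614 bp), Mrps18c with the helicase gene Helq (159 bp), Mrpl21 with the helicase gene Ighmbp2 (32 bp), and Mrpl40 with Hira, a histone chaperone (113 bp). Of genes for making or breaking down proteins, Mrpl32 was paired with the proteasome subunit Psma2 (205 bp) and Mrpl49 with Fau, which encodes a protein of the cytosolic ribosome (192 bp). Zinc finger genes were the partners of Mrpl50 (Zfp189, 93 bp) and Mrps5 (Zfp661, 332 bp). Mrps7 was paired with Gga3, an adaptor of Golgi sorting (224 bp), Mrpl2 with the kinesin light chain gene Klc4 (141 bp), and Mrps18b with Ppp1r10, a regulator of protein phosphatase 1 (756 bp). The others were Tmem63b with Mrpl14 (131 bp), Mitd1 with Mrpl30 (66 bp), Cyb5rl with Mrpl37 (128 bp) and Pnpla7 with Mrpl41 (935 bp). The midpoints at Mrpl14 and Mrpl40 lay 276 and 293 bp inside the partner.

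Shared windows without divergent starts took other forms. On the same strand, Mrpl12 shared its window with Hgs, Mrpl28 with Pgap6 and Mrps16 with Cfap70. Mrps6 and the inositol transporter gene Slc5a3 are also on one strand, and the midpoint lay at -15 and -1 bp of their starts. The second windows of Mrpl2 and Mrps18b were at the finish of the member, at 392 and 357 bp from its end. They lay 186 bp downstream of the start of Cul7, the scaffold of a ubiquitin ligase, and 45 bp downstream of that of Atat1, a tubulin acetyltransferase. The second window of Mrpl58 was 800 bp from an end of the gene and shared with 3 tRNA genes. Mrpl34 shared its window with Abhd8 and Mrpl48 with Rab6a on opposite strands without a clean divergent arrangement. For the pairs of Mrpl10 with Lrrc46, Mrpl13 with Mtbp, Mrpl38 with Trim65, Mrpl44 with Wdfy1, Mrpl53 with Ccdc142 and Mrpl54 with Apba3, the strand of at least one gene was not in the table. Noncoding genes alone shared the windows of Mrpl55 and Mrps26, each divergent with starts 55 and 8 bp apart, and of Mrps21 and Mrps28.

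In base composition the windows of these genes lay toward the lower part of the range for gene ends. Their median GC content was 65.7%, against 68.2% for all windows at ends of protein-coding genes. Cut at the quartiles of all those windows, 28 of the 72 fell into the lowest class, and 24, 13 and 7 into the next ones up to the highest. For CpG content the counts from lowest to highest were 23, 25, 15 and 9 windows. The median was 9.5 CpG per 100 steps against 10 for all. The Mrpl median was 62.7% GC and the Mrps median 66.2%, with ranges of 47.3 to 74.6% and 49.3 to 77.6% that overlap almost entirely. Member windows shared with a protein-coding gene had a median GC content of 63.2%, and those not shared with any gene 66.2%. Over all gene ends the same classes had 65.7% and 68.7%. Member windows at divergent protein-coding starts had a median of 60.9%. The same median over all gene ends was not taken, so this value cannot be read as a trait of members.

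**Figure D3:**
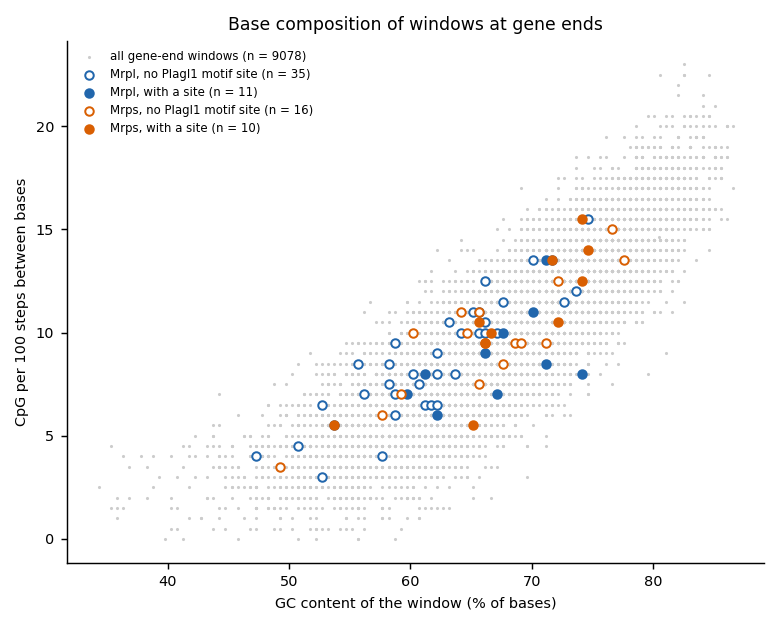
GC content (x axis, % of bases) against CpG per 100 steps between bases (y axis) for the 72 member windows over all 9078 windows at ends of protein-coding genes (grey). Blue points are Mrpl and orange points Mrps windows, filled where the window holds a Plagl1 motif site, and the window common to Mrpl46 and Mrps11 is drawn with Mrpl; member windows run from 47.3 to 77.6% GC, and few reach the CpG-dense upper right of the grey cloud.

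The extremes were individual genes of the 2 kinds of symbol. The lowest GC content was in the windows of Mrpl11 at 47.3%, Mrps12 at 49.3% and Mrpl1 at 50.7%. The lowest CpG content was 3 per 100 steps at Mrpl37, 3.5 at Mrps12 and 4 at both Mrpl11 and Mrpl34. At the other side were Mrps24 at 77.6% GC, Mrps6 at 76.6%, and Mrpl48 and Mrps7 at 74.6% each. CpG was densest at Mrpl48 and Mrps30, with 15.5 per 100 steps each, followed by Mrps6 with 15. Mrpl11 lies at the base of the ribosomal stalk. Its window and that of Mrps26, which has 74.1% GC and 12.5 CpG per 100 steps, are shown to contrast a window near the low end with one near the high end. Both are printed on the plus strand, which is also the strand of the 2 genes, and capitals in the second mark its Plagl1 match.

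Mrpl11, chr19:4962149-4962349: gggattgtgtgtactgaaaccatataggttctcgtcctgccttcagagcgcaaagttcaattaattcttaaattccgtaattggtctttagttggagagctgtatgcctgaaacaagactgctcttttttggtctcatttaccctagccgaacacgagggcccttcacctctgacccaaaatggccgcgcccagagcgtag

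Mrps26, chr2:130563668-130563868: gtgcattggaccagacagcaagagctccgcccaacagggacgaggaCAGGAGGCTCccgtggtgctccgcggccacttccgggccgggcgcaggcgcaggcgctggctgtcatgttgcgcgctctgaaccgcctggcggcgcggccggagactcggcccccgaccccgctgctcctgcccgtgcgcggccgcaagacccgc

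The share of members with a Plagl1 motif was close to that of other genes. Of the 69 members with a window at an end, 22 (31.9%, interval 21.2 to 44.2) held at least 1 site in it, where 33.4% of all protein-coding genes with such a window did. By symbol the counts were 11 of 43 Mrpl genes (25.6%, interval 13.5 to 41.2) and 11 of 26 Mrps genes (42.3%, interval 23.4 to 63.1), whose intervals overlap. By place in the ribosome they were 26.7% and 39.1%. The 22 genes held 24 different sites in 21 windows, since Mrpl46 and Mrps11 share theirs. Windows with a site had a median GC content of 67.7% and windows without one 63.7%. Over all gene-end windows the same 2 values were 69.2% and 67.7%.

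The sites scored from 5.60 to 7.07 on HOMER's log-odds scale, whose log base the file does not state, with a median of 6.22. Over all 5753 sites the median was 5.94. All 24 had G at positions 4, 6 and 7, counted from the 5′ end of the motif strand. At position 5, G and A occurred in 12 sites each. Sites were called as matches to this same motif, which limits the letters they can hold. The same counts over all 5753 sites were not made, so these letters cannot be read as a trait of members. The best-scoring sites, both sites of each gene that holds 2, and the site of Mrpl58, which shares its letters with one of Mrps21, are printed on the motif strand, with positions 4 to 7 in capitals.

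Mrpl14: cgtGGGGccc

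Mrpl2, first: cagGGGGccc

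Mrpl2, second: tcgGAGGcct

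Mrps7: catGGGGgcc

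Mrps15, first: actGGGGccc

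Mrps15, second: cggGGGGccc

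Mrps21, first: tcaGAGGccc

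Mrps21, second: cctGGGGcct

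Mrpl58: cctGGGGcct

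The highest scores were 7.07 at both Mrpl14 and Mrpl2. The Mrpl14 site was at -381 bp from its start, in the window shared with Tmem63b. The Mrpl2 site was in the window at the finish of the gene that also lies at the start of Cul7, together with a second site of score 5.63, so it is 4363 bp from the start of Mrpl2. Mrps7, a small subunit protein that binds ribosomal RNA early in assembly, had 1 site of score 6.58 at -196 bp. Mrps15 held a pair of separate sites downstream of its start, at 115 and 197 bp, with scores 6.54 and 6.57. In Mrps21 the pair overlapped on opposite strands, with scores 6.46 and 6.04. The second of these has the same letters as the site of Mrpl58, which lay 33 bp downstream of its start. Those letters occurred at 21 sites of the whole series.

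Sites of middle rank followed at Mrps18b (6.45, in the window at its finish), Mrps31 (6.45), Mrpl54 (6.44), the common window of Mrpl46 and Mrps11 (6.27), Mrps9 (6.26), Mrpl17 (6.25) and Mrpl23 (6.20). The lowest scores were at Mrpl27 (6.06), Mrps26 (6.04), Mrps35 (5.83), Mrps36 and Mrps30 (5.80 and 5.79), Mrpl45 (5.71), Mrpl9 (5.64) and Mrpl57 (5.60). Mrpl45 is the protein that anchors the large subunit to the inner membrane. For 20 pairs of a site and a gene the distance to the start was within 1 kb, and in 15 of those the site lay downstream. The site was on the gene's strand in 11 and on the other in 9. The same counts over the sites of all genes were not made, so neither count can be read as a trait of members. Window midpoints of all genes lay upstream of the start in only 39.3%.

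Beyond the Plagl1 motif, the promoters of these genes were searched for 5 short motifs. RefSeq promoters of GRCm38.p6, 300 bases each from 250 before the start to 50 from it on, matched 69 of the 78 members by gene ID, with 75 promoters since a gene can have several. The letters were TGCGCA for the core of the NRF1 site, CCGGAAG for ETS factors such as GABP, AAGATGG for YY1, GGGCGG for the SP and KLF factors, and CCAAT for NF-Y, each on both strands. None of these 5 strings contains another.

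Matches to the motifs of the respiratory factors were frequent among members. The NRF1 core was found in 22 of 75 promoters (29.3%, interval 19.4 to 41.0), against 14.9% of the 10201 promoters of protein-coding genes with a gene-end window and 7.76% of all 32851 promoters in the table. The ETS motif was found in 26 (34.7%, interval 24.0 to 46.5), against 19.2% and 8.86%. The YY1 motif was found in 13 (17.3%, interval 9.57 to 27.8), against 7.40% and 6.34%. By contrast GGGCGG was found in 39 (52.0%, interval 40.2 to 63.7), against 66.5% of promoters with a window and 35.7% of all. CCAAT was found in 30 (40.0%), close to the 39.4% and 37.4% of the other sets. The set of all promoters covers 27025 genes, of which 17492 were matched as protein-coding, so it also holds promoters of other kinds of gene. Promoters of one gene can overlap, as those of Mrpl2 and Mrps16 do, but the intervals treat them as separate. Counted per gene, the shares of members and of genes with a window were 30.4% and 17.1% for NRF1 and 37.7% and 21.7% for ETS. They were 18.8% and 8.66% for YY1, 49.3% and 72.4% for GGGCGG, and 39.1% and 43.8% for CCAAT. The median GC content of the promoters was 58.7% for members, 61.7% for genes with a window and 52.7% for all. GC content alters how often each motif occurs, and its part in these shares was not tested. Restricted to the members that also have a gene-end window, the shares were 29.4% for NRF1, 32.4% for ETS, 19.1% for YY1, 55.9% for GGGCGG and 41.2% for CCAAT.

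**Figure D4:**
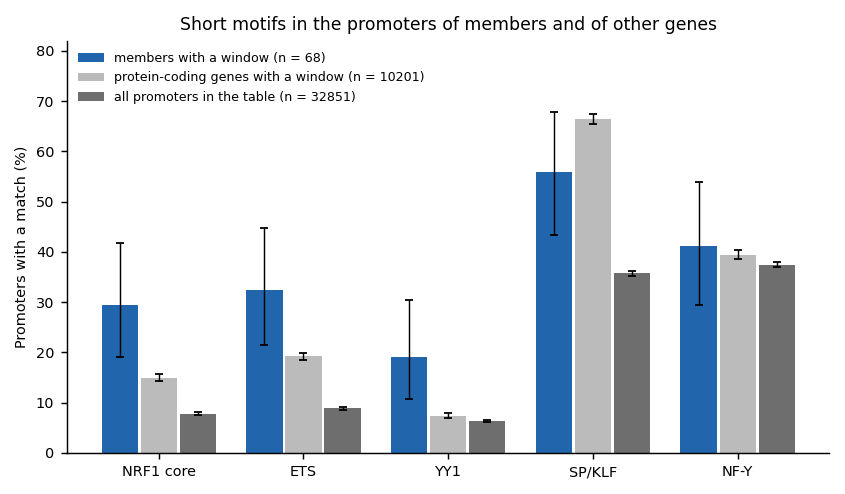
Share of promoters (y axis, %) with a match to each of 5 short motifs, in members with a gene-end window (blue, 68 promoters), in protein-coding genes with a window (light grey, 10201) and in all promoters of the table (dark grey, 32851). The last set also holds promoters of genes that are not protein-coding. Error bars are exact 95% intervals; the blue bars stand above both grey bars for NRF1, ETS and YY1, and below the light grey bar for SP/KLF.

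At least one of the NRF1 and ETS motifs was present in 40 of the 75 member promoters (53.3%), against 30.8% of the promoters of genes with a window and 15.3% of all. Both were present in 8 (10.7%, interval 4.72 to 19.9), against 3.23% and 1.28%. The 8 were those of Mrpl17, Mrpl22, Mrpl57, Mrpl58, Mrps16, Mrps18a, Mrps18b and Mrps23. Mrps18a, Mrps18b and Mrps18c descend from one ancestral gene, and the ETS motif was found in all 3, while the NRF1 core was found in Mrps18a and Mrps18b. The motifs differed in place. ETS matches began at a median of 17 bases before the start (-17), and 22 of 31 (71.0%) began within 50 bases of it, against 57.8% in genes with a window. YY1 matches began at a median of 14 bases after the start, with 9 of 15 at or after it (60.0%, against 39.5%). NRF1 matches began at a median of -62, as they did in genes with a window.

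The promoter of Mrps18a holds the NRF1 core 42 bases before the start, the ETS motif 26 before it and the YY1 motif 11 after it. It is shown with that of Mrpl58, which has the NRF1 core at -115 and a pair of ETS matches at -17 and -2. Both are on the plus strand of GRCm38, and capitals mark the NRF1 and ETS matches.

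Mrps18a, chr17:46110754-46111053: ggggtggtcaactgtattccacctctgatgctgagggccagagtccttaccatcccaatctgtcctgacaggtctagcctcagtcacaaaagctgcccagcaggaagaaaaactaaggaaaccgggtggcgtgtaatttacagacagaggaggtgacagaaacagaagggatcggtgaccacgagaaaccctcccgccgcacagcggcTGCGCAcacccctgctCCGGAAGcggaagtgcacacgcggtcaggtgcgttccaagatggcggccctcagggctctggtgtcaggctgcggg

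Mrpl58, chr11:115403502-115403801: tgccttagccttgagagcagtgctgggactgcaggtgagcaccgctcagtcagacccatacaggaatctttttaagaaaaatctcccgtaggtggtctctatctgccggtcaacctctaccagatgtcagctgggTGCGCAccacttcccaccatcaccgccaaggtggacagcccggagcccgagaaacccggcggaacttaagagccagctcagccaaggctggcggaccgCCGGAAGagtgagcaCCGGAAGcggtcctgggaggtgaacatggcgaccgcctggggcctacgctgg

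The genes that work with the mitochondrial ribosome had windows about as often as its proteins. Over all protein-coding genes, 46.6% had a window, and 33.4% of those with one held a Plagl1 motif site. Differences of the lists below from these shares were not tested. Of 5 mitoribosomal proteins that carry other symbols (Dap3, Ptcd3, Chchd1, Aurkaip1 and Gadd45gip1), all had a window, and 3 of them, Chchd1, Dap3 and Gadd45gip1, had a Plagl1 motif site. Of 25 genes for ribosome assembly and RNA modification, 23 had a window (92.0%), the exceptions being Rcc1l and Trub2. A site was found in 7 of the 23, among them Dhx30, Malsu1, Mrm1 and Ngrn. Of 15 mitochondrial translation factors, 12 had a window (80.0%), and the initiation factors Mtif2 and Mtif3 and the recycling factor Mrrf did not. Sites were at the elongation factors Tsfm and Tufm and at Mtfmt, which formylates the initiator tRNA. Of 20 genes for mitochondrial aminoacyl-tRNA synthesis, 17 had a window (85.0%), and 4 a site: Fars2, Gatc, Iars2 and Lars2. Of 12 genes for transcription and replication of mitochondrial DNA, 10 had a window (83.3%) and 0 of the 10 a site, which allows a share of up to 30.8% by the exact interval.

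Set beside the cytosolic ribosome and the respiratory chain, the window share was similar, and the sharing of windows depended on which neighbours were counted. Cytosolic ribosomal protein genes had a window in 72 of 76 cases (94.7%, interval 87.1 to 98.5) and nuclear respiratory chain genes in 72 of 87 (82.8%, interval 73.2 to 90.0). Windows were shared with a protein-coding gene in 26.3% of cases for the cytosolic ribosome (interval 16.9 to 37.7), 48.0% for the respiratory chain (interval 36.3 to 59.8) and 51.4% for the mitochondrial ribosome, and the difference was not tested. Counting neighbours of any kind, the same shares were 48.7%, 54.7% and 58.3% and lay closer together. Plagl1 motif sites were found in 37.5% of the cytosolic and 36.1% of the respiratory chain genes with a window, within the interval of the 31.9% of mitochondrial ribosomal protein genes. Median GC content was 62.2% for both other groups.

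**Figure D5:**
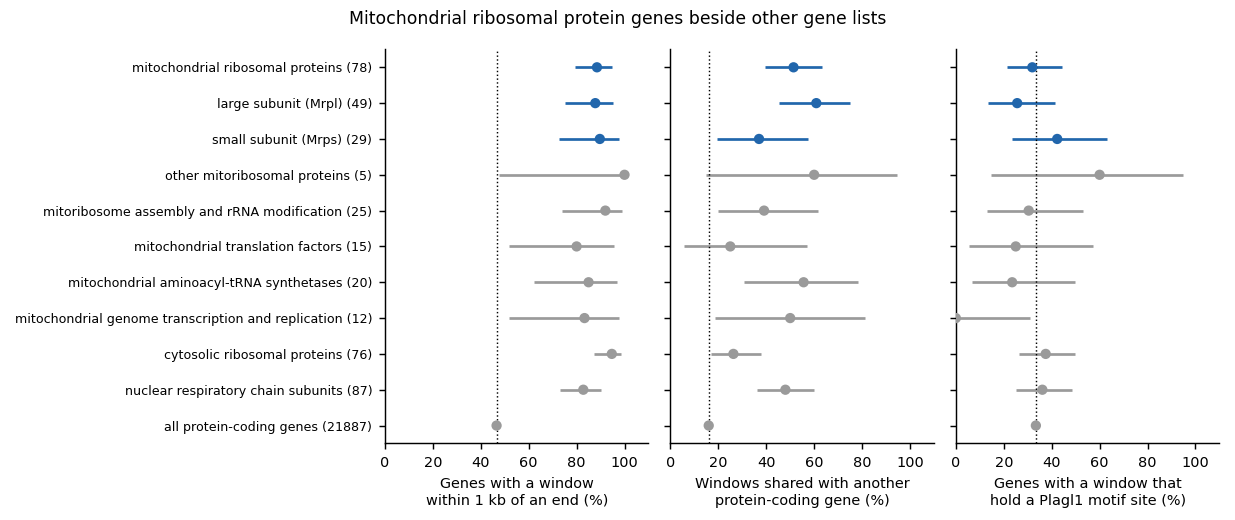
Shares with exact 95% intervals for the mitochondrial ribosomal protein genes (blue) and other gene lists (grey): genes that have a window at an end, windows at gene ends shared with another protein-coding gene, and genes with a window that hold a Plagl1 motif site, each on an x axis in %. Numbers of genes are in brackets and dotted lines mark all protein-coding genes; all lists lie to the right of the line at 46.6% in the left panel, and intervals span the line at 33.4% in the right panel except for the genes of mitochondrial DNA transcription and replication, with 0 of 10.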

How the data were processed

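Per the submitters' processing notes, the authors used Bowtie2 2.3.5 with mm10, MACS2 2.1.1, FastQC 0.11.8, cutadapt 1.18, Picard, edgeR and bedtools. Per the file headers, HOMER's annotatePeaks searched 1 motif in 100 bp to either side of the centre of each region of a union peak list. The sources used here do not say how that list was made. The deposited GC value is a fraction of bases per window and the deposited CpG value a ratio of CpG to steps between bases. They are given as percent and per 100 steps. The deposited score of a site is HOMER's log-odds score. Positions count from 1.

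Genes and promoters came from RefSeq GRCm38.p6, the assembly of mm10. Letters of all 1493 sites lying in a promoter were the same as the promoter's. For all 17 member windows that promoters cover whole, GC content matched the deposited value within 0.01 percentage points, and so did the CpG count. Gene starts and strands were taken from the promoter table. Counting was tested on simulated data. Alternatives covered the distance (500 bp, 3 kb, 10 kb, gene body), the nearest gene, the symbols, the score, sharing and starts. No sample comparison was possible, and no statistical test was run. The members and lists were chosen with earlier results of these data known. All members may be named by the rule, in full where they have a site, 2 windows, a shared window, no window or an extreme value. Of the other lists, 1 name, Trmt61b, was not matched. Python 3.11.15, numpy 2.4.6, pandas 2.3.3, scipy 1.17.1 and matplotlib 3.10.9 were used.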

Additional observations from a re-analysis of the deposited data

How the results depend on the processing

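Of 33 comparisons with an alternative, 32 stayed within 1.5 times the count or within the interval of the median. The exception was the number of members with a Plagl1 motif site, which fell from 22 of 69 to 11 when windows shared with another gene were left out, because only 30 members' windows remain. Some of the other alternatives could not have passed the limit. A wider distance can raise 69 members at most to 78. Divergent starts already require known strands, so their count of 22 could not change. The 32 are therefore no measure of how stable the results are. The count of members with a window ranged from 49 to 76 of 78 over the distance rules, against 41.1% to 58.0% of all protein-coding genes. The lowest value, 49 (62.8%), counts a window only for its nearest protein-coding gene, so that a shared window goes to one partner. The median GC content of member windows lay between 65.2% and 66.2%. The counts by RefSeq start, of motifs per gene or among members with a gene-end window, of pairs with known strand and by place in the ribosome were chosen after seeing the data. No paired analysis was possible because the files hold no value per library, and for the same reason no library could be left out. The depth behind each window is unknown, so the absence of a window cannot be read as closed chromatin.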

Other observations

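The promoters of members were also searched for the letters of any deposited Plagl1 site, inside or outside a window. Of 75 member promoters, 24 (32.0%, exact interval 21.7 to 43.8) held such letters on either strand, against 41.1% of the promoters of protein-coding genes with a gene-end window and 38.9% of all promoters in the table. The list of letters comes from the sites found in these windows, so letters that would pass the motif's limit without occurring there are not counted.

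Of the 9 windows closest outside the 1 kb limit, 4 held a Plagl1 motif site and 5 did not. Those of Mrpl36, Mrpl24, Mrpl10 and Mrpl4, at 1021, 1520, 1571 and 1713 bp from a gene end, held 1 site each, and those of Mrpl34, Mrpl18, Mrpl22, Mrps2 and Mrps16 held none. The first pair lies at 148 and 107 bp from the RefSeq start. A site was held by 32.8% of all windows at ends of protein-coding genes, and the share among these 9 was not tested against it.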
